A study of Homo sapiens with 4 samples.

Results

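Interferon-stimulated effector genes were followed in a pair of established lines from human endometrial cancer, HEC-1-A and RL-95-2. The 37 genes were taken by symbol from the 22494 features of the raw count table, and all 37 symbols were found there. Each line gave 1 library from cells that received tRF-20-S998LO9D mimic by transfection, a copy of a transfer RNA fragment, and 1 library from cells given the negative control oligonucleotide for such mimics. All 4 libraries thus came from transfected cells, and untransfected cells were not analysed here. The labels give no dose and no time after transfection, and they do not say whether separate cultures were used for a line's libraries.

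Type I and type III interferons bind receptors on the cell surface and activate the kinases JAK1 and TYK2, which phosphorylate STAT2. STAT2 and IRF9 are parts of the factor ISGF3, which binds the interferon-stimulated response element (ISRE) in promoters. The genes switched on this way encode proteins that bind foreign RNA, block viral entry, budding or replication, and modify other proteins. Many of them also have a low level of transcription without added interferon, and double-stranded RNA inside a cell can induce them through cytosolic RNA sensors.

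Total counts ranged from 33575882 to 46220053 per library, and between 17016 and 17640 features had a count. The 37 genes held 0.0394% of the counts in the HEC-1-A control and 0.0454% in the HEC-1-A mimic library. In RL-95-2 their share was 0.0621% without the mimic and 0.0947% with it. All 5 epithelial markers (EPCAM, CDH1, KRT8, KRT18, KRT19) had counts in every library. They summed to 1050 and 905 CPM in HEC-1-A, control first, while RL-95-2 had 1870 and 3370 CPM. KRT8 made up most of that gap in RL-95-2, at 388 and 1444 CPM, with KRT18 at 840 and 1067 CPM and KRT19 at 277 and 511 CPM. EPCAM was at 162 and 139 CPM there, and CDH1 at 204 and 208 CPM. Of 5 markers of endometrial epithelium, PAX8 was between 220 and 353 CPM (counts scaled to a common library total), while SOX17 had no count in any library and EMX2 none in HEC-1-A. Of 7 blood and immune markers, PTPRC had 2 counts in the HEC-1-A control and none elsewhere. The summed level of those 7 was 1.12 CPM in the HEC-1-A control, 1.85 CPM with the mimic, 8.69 CPM in the RL-95-2 control and 6.57 CPM with the mimic. CD68 made up most of the sum in RL-95-2, at 7.51 CPM in the control and 4.93 CPM with the mimic. The 5 stromal markers summed to 3.86 and 7.75 CPM in HEC-1-A and to 78.8 and 57.1 CPM in RL-95-2, control first. COL1A1 made up nearly all of the sum in RL-95-2, at 78.17 and 56.55 CPM, while COL1A2 and DCN were at 0 in all 4 libraries. The 4 endothelial markers summed to 0 and 0.29 CPM in HEC-1-A and to 14.2 and 24.7 CPM in RL-95-2, where CDH5 made up nearly all of it and PECAM1 and KDR were at 0. The part of these differences in the results on the 37 genes was not tested. In bulk RNA, fewer expressing cells and less RNA per cell cannot be told apart.

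The promoters of 6 genes described here are shown first, because ISGF3 acts through the ISRE. They were picked after their values were seen, as genes with a wide ratio or a wide difference between the lines, or, for IFITM3, a ratio above 0 in both lines at a high level. Each run is the 250 bases before the RefSeq start on GRCh38.p14, written 5' to 3' on the gene's own strand. Capitals mark matches to the ISRE core, the letters GAAA repeated with any 2 bases between, on either strand, so that TTTC letters are a match on the other strand. OAS3 (chr12:112938224-112938473, plus strand), IFIT1 (chr10:89392373-89392622, plus strand), IFITM3 (chr11:320861-321110, minus strand), BST2 (chr19:17405631-17405880, minus strand) and ISG20 (chr15:88638766-88639015, plus strand) hold the letters. SAMHD1 (chr20:36951709-36951958, minus strand) is shown as a gene with a wide ratio in RL-95-2 and no match.
OAS3: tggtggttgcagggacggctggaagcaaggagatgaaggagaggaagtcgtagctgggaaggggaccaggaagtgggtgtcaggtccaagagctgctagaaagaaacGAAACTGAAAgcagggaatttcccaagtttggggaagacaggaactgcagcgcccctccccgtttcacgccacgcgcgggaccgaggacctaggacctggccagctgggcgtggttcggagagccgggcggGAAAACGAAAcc
IFIT1: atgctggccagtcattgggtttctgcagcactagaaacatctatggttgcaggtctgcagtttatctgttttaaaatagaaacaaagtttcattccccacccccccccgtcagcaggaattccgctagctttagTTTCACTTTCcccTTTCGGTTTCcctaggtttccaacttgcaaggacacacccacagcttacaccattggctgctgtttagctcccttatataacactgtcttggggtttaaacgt
IFITM3: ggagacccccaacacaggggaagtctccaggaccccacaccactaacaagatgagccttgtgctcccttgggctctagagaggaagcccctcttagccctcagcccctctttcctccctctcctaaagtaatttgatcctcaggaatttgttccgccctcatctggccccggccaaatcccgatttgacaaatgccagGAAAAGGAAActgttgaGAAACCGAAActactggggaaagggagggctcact
BST2: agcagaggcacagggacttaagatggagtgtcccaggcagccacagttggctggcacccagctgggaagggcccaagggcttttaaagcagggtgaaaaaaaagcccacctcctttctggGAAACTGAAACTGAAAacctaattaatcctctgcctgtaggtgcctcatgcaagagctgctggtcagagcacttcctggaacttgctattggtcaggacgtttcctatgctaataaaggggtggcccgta
ISG20: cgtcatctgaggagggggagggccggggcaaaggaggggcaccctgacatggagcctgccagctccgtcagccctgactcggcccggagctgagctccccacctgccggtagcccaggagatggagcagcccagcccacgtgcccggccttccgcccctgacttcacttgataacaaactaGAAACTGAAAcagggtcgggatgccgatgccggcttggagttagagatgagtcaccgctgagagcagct
SAMHD1: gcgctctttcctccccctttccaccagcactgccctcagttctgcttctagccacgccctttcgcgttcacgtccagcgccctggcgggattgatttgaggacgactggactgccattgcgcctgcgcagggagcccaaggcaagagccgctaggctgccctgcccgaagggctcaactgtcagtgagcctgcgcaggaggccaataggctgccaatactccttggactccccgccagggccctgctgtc
The BST2 run holds 2 overlapping matches, and OAS3, IFIT1 and IFITM3 hold 2 separate ones each. ISG20 holds 1.

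Of the 37 genes, 30 had an entry in the promoter table. The entries for IFIT2, USP18, MX2, OAS2, OASL, IFITM2 and TRIM22 were missing. The ISRE letters were in 17 of the 30 promoters (56.7%) and in 839 of 27305 promoters of all genes (3.07%). The letters TTCNNNGAA, a core of the gamma-interferon activated site, were in 9 of 30 (30.0%) and in 6.78% of all promoters. A match is a description of the letters in this window and not a measured binding site. Within RL-95-2, the median log2 ratio of mimic to control was 0.44 for the 13 genes with ISRE letters and a mean of at least 1 CPM there, and 0.10 for the 11 without. The ranges of those ratios overlapped, from -2.60 to 1.64 and from -0.38 to 2.07. In HEC-1-A the medians were 0.27 for 11 genes with the letters and 0.22 for 11 without.

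On the FPKM scale, which divides by gene length and so allows genes to be set against each other, IFITM3 led in HEC-1-A, and BST2 did in RL-95-2. IFITM3 encodes a membrane protein that hinders the fusion of viruses with endosomes. Its mean level was 36.99 FPKM over the 2 HEC-1-A libraries (32.4 and 41.6). ISG15, a ubiquitin-like protein that is attached to other proteins, came next in HEC-1-A at a mean of 20.4 FPKM (16.8 and 24.0). Below these, OAS3, STAT2, IFI35, DTX3L, IFIT2 and PARP14 lay between 6.47 and 7.49 FPKM, and the ranges of neighbours in that order overlapped. In RL-95-2, BST2, a tether that holds budding virus particles at the cell surface, had a mean of 120 FPKM (74.8 and 164) and IFITM3 a mean of 53.9 FPKM (39.7 and 68.2). PARP14, STAT2, DTX3L, IRF1, IFI35, OAS3, IFITM1 and IFIT5 followed there between 9.44 and 13.7 FPKM, again with overlapping neighbours except below IFIT5. Over the whole order, 22 of 36 neighbouring pairs overlapped in HEC-1-A, with 31 of 36 in RL-95-2. The median of the 37 genes was 1.75 FPKM in HEC-1-A, with 2.52 FPKM in RL-95-2.

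At the low end, XAF1, which encodes a protein linked to cell death, had no count in either HEC-1-A library, and IFI44L had none in either RL-95-2 library. MX2, an inhibitor of viral nuclear import, had 2 counts in each mimic library and none in the controls. A count of 0 allows a level of up to 0.0609 to 0.0905 CPM, depending on the library. A mean of at least 1 CPM, needed here for a ratio within a line, was reached by 25 genes in HEC-1-A, 28 in RL-95-2 and 23 in both.

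**Figure D1:**
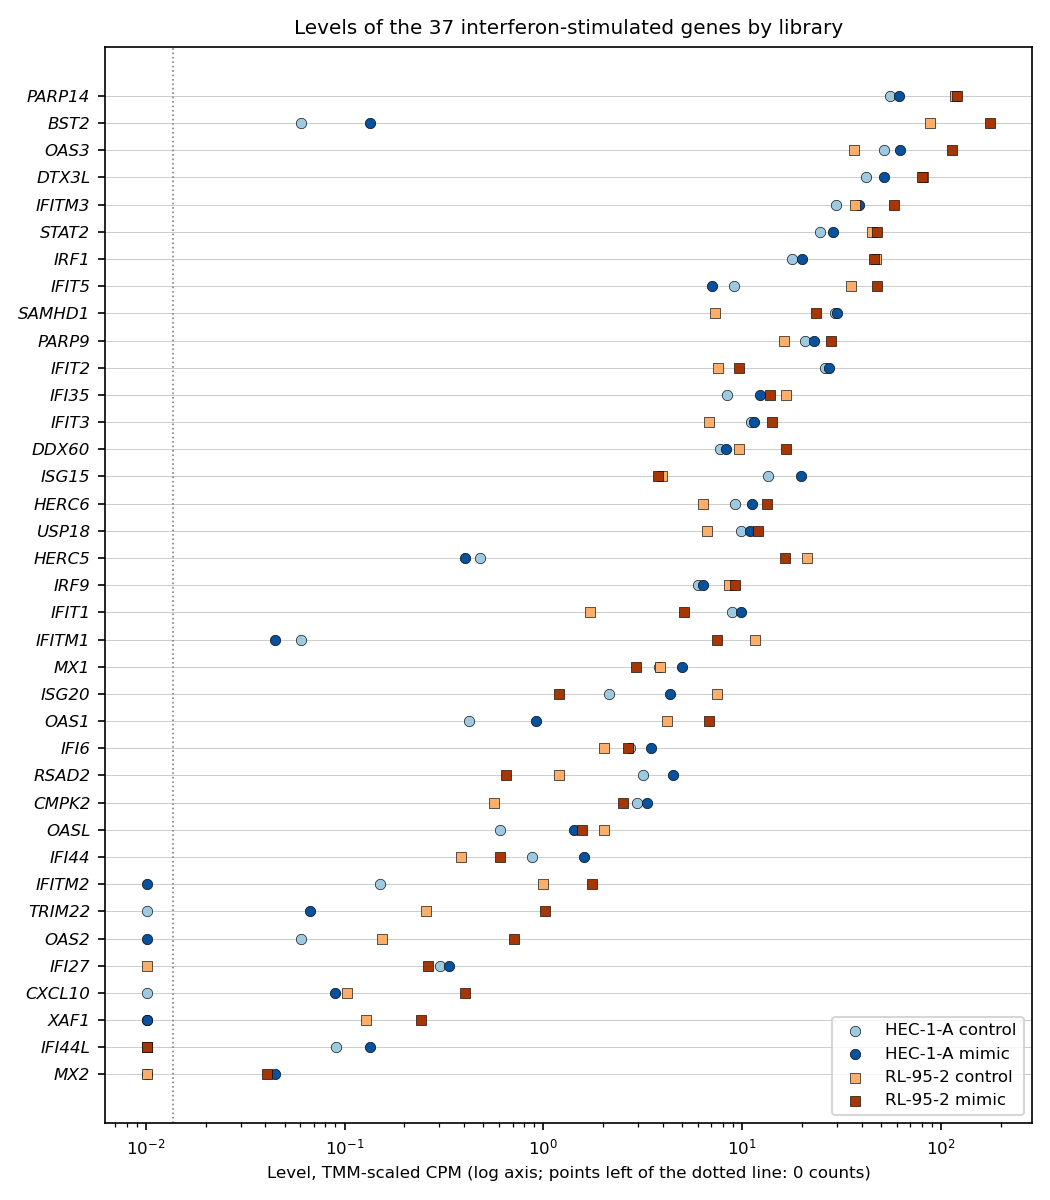
Level of each of the 37 genes in each of the 4 libraries (CPM, log scale); circles are HEC-1-A, squares RL-95-2, dark fill the mimic, and points left of the dotted line have 0 counts. BST2, IFITM1 and HERC5 are the genes whose HEC-1-A points lie farthest below their RL-95-2 points.

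Between the lines, BST2, IFITM1 and HERC5 were far higher in RL-95-2, and ISG15, RSAD2, IFIT1 and IFIT2 were lower there. CPM values were scaled by the trimmed mean of M-values (TMM). Over both transfections (2 libraries per line), 11 of the 32 genes that passed the low-count filter were higher in RL-95-2 and 4 were lower by edgeR's quasi-likelihood test at an adjusted p of 0.05, and 17 were not called. Of all 15957 genes tested, 18.3% were called higher and 16.7% lower, 35.1% in either direction. The 15 called among 32 are thus to be read against that background. BST2, IFITM1, IFITM2 and TRIM22 passed the filter through their RL-95-2 libraries alone, so they could be called only as higher there. The 2 libraries of a line are different transfections, and the model fits the transfection as well as the line. The p-values thus rest on what the model leaves over, with 1 residual degree of freedom, and not on a spread between cultures.

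BST2 had 2 and 6 counts in the HEC-1-A control and mimic libraries, and 3446 and 8700 counts in those of RL-95-2. Its log2 fold change for RL-95-2 over HEC-1-A was 10.37 ± 0.37 (SE, adjusted p = 7.98e-05, edgeR). IFITM1, a relative of IFITM3 that acts at the cell surface, had 2 and 2 counts in HEC-1-A against 453 and 369 in RL-95-2, a log2 fold change of 7.41 ± 0.60 (adjusted p = 2.85e-04, edgeR). For these genes the HEC-1-A level was near the lowest that can be counted, so the size of the fold rests on few counts. HERC5, the main ligase that attaches ISG15 to proteins, had 16 and 18 counts against 832 and 810, a log2 fold change of 5.40 ± 0.41 (adjusted p = 2.19e-04, edgeR).

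Other genes called higher in RL-95-2 were OAS1, IFITM2, TRIM22, IFIT5, IRF1, PARP14, STAT2 and DTX3L, with log2 fold changes from 0.79 (DTX3L) to 4.37 (IFITM2). IFITM2 and TRIM22 were among them with at most 5 counts in any HEC-1-A library and at most 87 in RL-95-2. With DESeq2, TRIM22 was no longer called (adjusted p = 0.118). The 4 genes called lower in RL-95-2 were ISG15 (log2 fold change -2.08 ± 0.36), RSAD2 (-2.08 ± 0.59), IFIT1 (-1.65 ± 0.48) and IFIT2 (-1.64 ± 0.28), with adjusted p-values of 0.00592, 0.0349, 0.0391 and 0.00595 (edgeR). ISG15 and its ligase HERC5 thus lay on opposite sides. Between the control libraries alone, all 15 called genes had the same direction and 13 were at least 2-fold apart. Between the mimic libraries, all 15 kept the direction and 11 were at least 2-fold apart. The 15 genes were called from these same 4 libraries, so the shared direction is not separate evidence. With a filter of at least 1 CPM in all 4 libraries, which removes genes near 0 in a line, 5 were called higher and 3 lower. The share of all genes called under that filter was not computed.

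**Figure D2:**
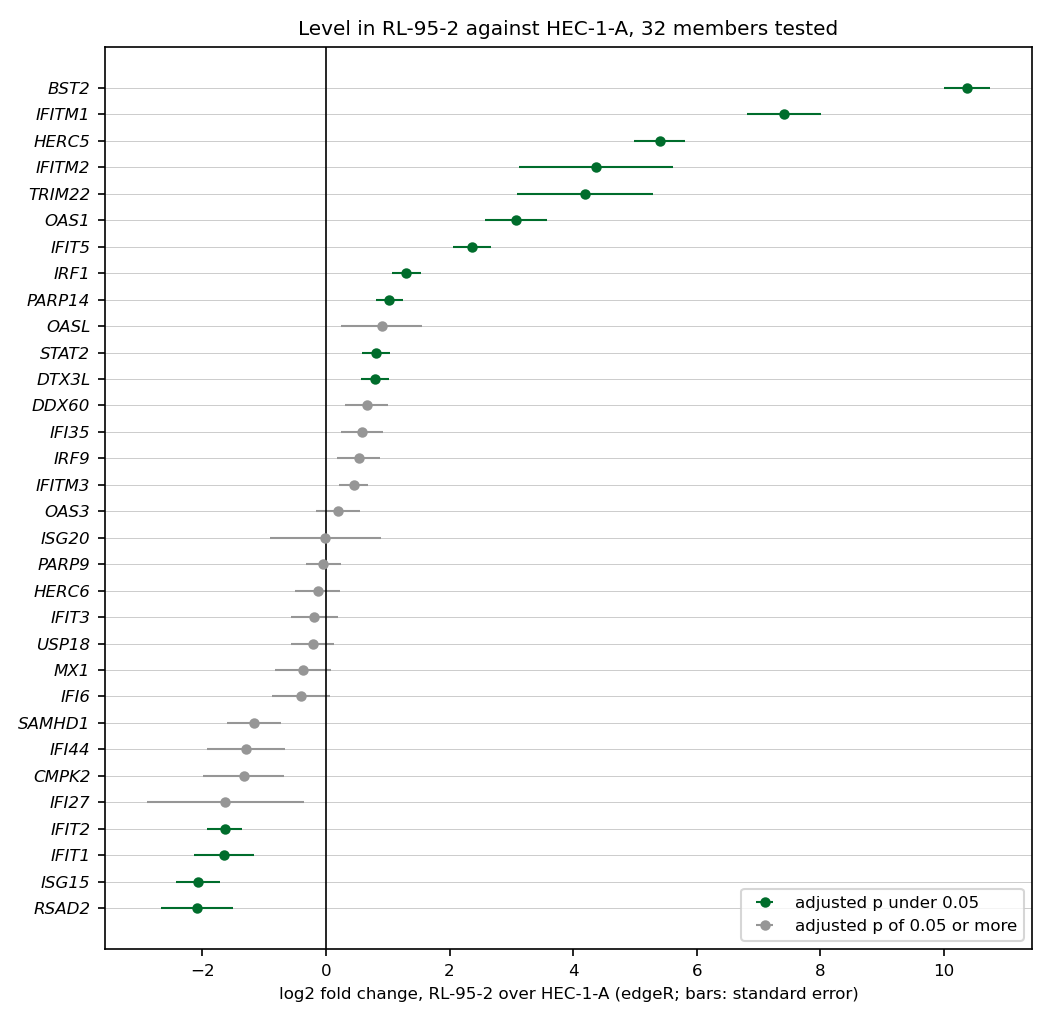
log2 fold change of RL-95-2 over HEC-1-A for the 32 genes tested (edgeR, bars are standard errors derived from the F statistic, 2 libraries per line). Green marks an adjusted p under 0.05, with BST2 at 10.37 and RSAD2 and ISG15 at -2.08 as the ends of the range.

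For the mimic, the test over both lines set 2 mimic libraries against 2 controls with the line as a block. It called 0 of the 32 genes tested and 0 of 15957 genes in all, which is 0% of the background in each direction. At an unadjusted p under 0.05 there were 2 of the 32, both higher with the mimic, and 92 higher and 75 lower among all genes. DESeq2, limma-voom and limma on log2 FPKM values also called none of the 32. BST2 had a log2 fold change of 1.01 ± 0.30 (SE) and OAS3 of 0.95 ± 0.36, each with an edgeR adjusted p of 0.9999. With 2 and 6 counts of BST2 in HEC-1-A, its value rests almost wholly on the RL-95-2 libraries. The median log2 fold change was 0.38 for the 32 genes and 0.01 for all genes. MX2, OAS2, IFI44L, XAF1 and CXCL10 did not pass the filter. In simulated data of this design, 15620 genes were tested. The test recovered 26.9% of genes changed 2-fold, 92.5% of those changed 4-fold and all of those changed 8-fold. It also called 8 unchanged genes. The changed genes averaged at least 5 CPM and were changed alike in both lines. Each gene was drawn with the spread typical of its level, and unchanged genes had the same mean for control and mimic in a line. These shares therefore do not carry over to genes at lower levels, to genes with a wider spread or to ratios that differ between the lines.

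Within a line, 1 mimic library stood against 1 control library. No p-value is given there, the intervals cover counting error only, and the spread between cultures was not measured. In HEC-1-A the ratios were small and nearly all above 0. The median log2 ratio of mimic to control was 0.22 for the 25 genes with at least 1 CPM, against 0.02 for 12981 genes. A ratio above 0 was found for 24 of the 25, against 53.6% of all genes. The counting interval lay above 0 for 15 (29.5% of all genes) and below 0 for 1, IFIT5 (23.5%). OASL was the gene at least 2-fold higher (0.871% of all genes), and none was at least 2-fold lower (0.239%).

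In RL-95-2 the ratios were wider in both directions. The median log2 ratio was 0.41 for 28 genes and 0.00 for 13151 genes. Ratios were above 0 for 19 of the 28 (50.1% of all genes) and below 0 for 9. The counting interval lay above 0 for 15 (39.9%) and below 0 for 5 (40.5%). CMPK2, SAMHD1, OAS3, IFIT1, HERC6 and IFIT3 were at least 2-fold higher with the mimic, 6 of 28 against 4.71% of all genes. ISG20 was at least 2-fold lower, 1 of 28 against 6.52%. BST2 lay just under 2-fold, at a log2 ratio of 0.999, as ISG20 did in HEC-1-A at 0.9999. The summed level of the 37 genes was 399 CPM in the HEC-1-A control and 467 CPM with the mimic, and 636 and 888 CPM in RL-95-2. Of the difference of 252 CPM in RL-95-2, BST2 gave 88.2 CPM and OAS3 77.1 CPM.

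**Figure D3:**
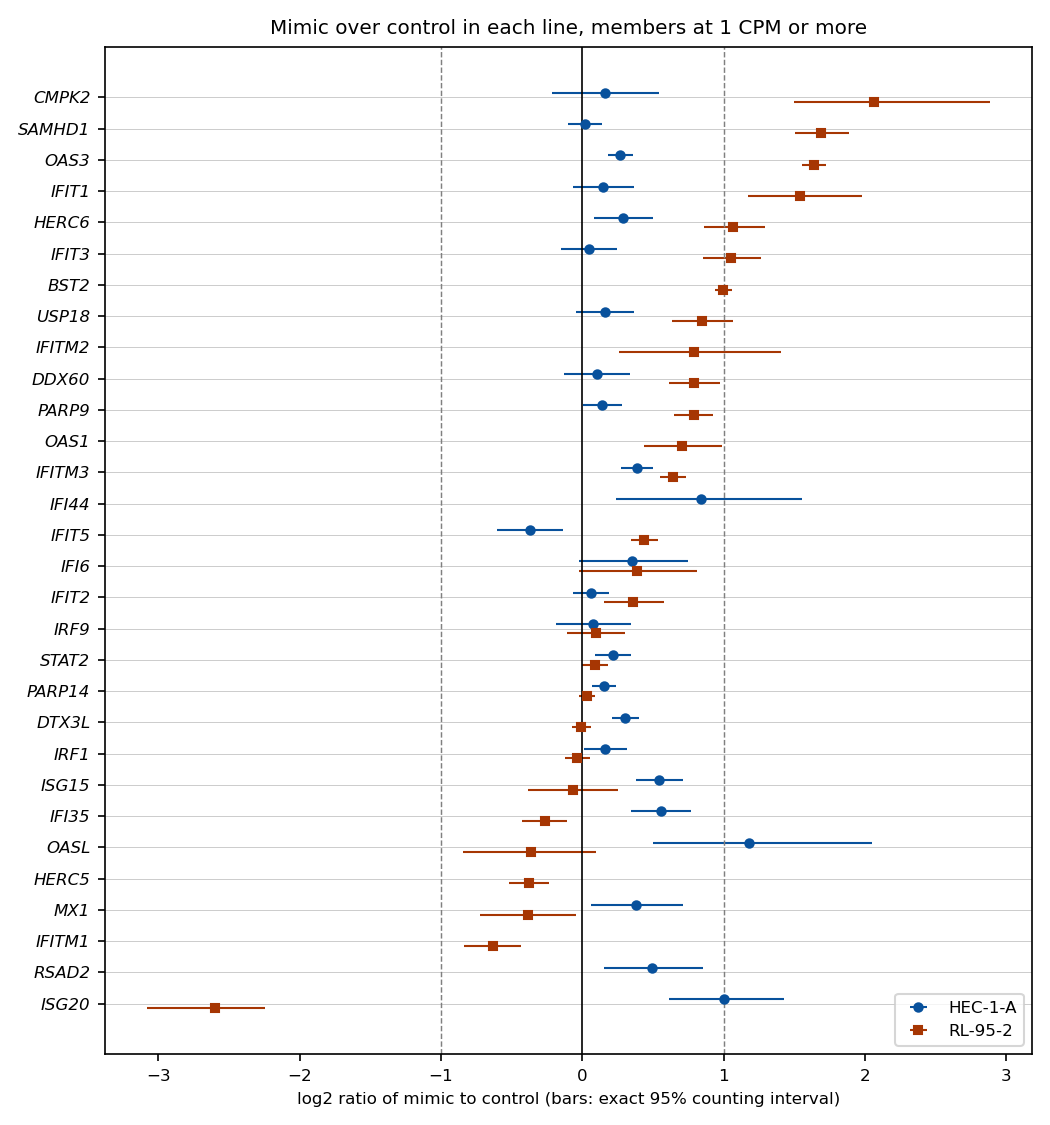
log2 ratio of mimic to control in each line for the genes that averaged 1 CPM or more in it, with 95% counting intervals (1 library per transfection). In HEC-1-A 24 of 25 points are above 0, and in RL-95-2 the points run from -2.60 (ISG20) to 2.07 (CMPK2).

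The IFIT proteins bind viral RNA, and their genes lie side by side on chromosome 10. IFIT1, which recognises RNA without the methyl marks of a host cap, was at 8.93 CPM in the HEC-1-A control and 9.92 CPM with the mimic, and at 1.72 and 5.09 CPM in RL-95-2. IFIT3, a partner of IFIT1, was at 11.1 and 11.4 CPM in HEC-1-A and at 6.82 and 14.2 CPM in RL-95-2. IFIT2 was at 26.1 and 27.2 CPM in HEC-1-A and at 7.53 and 9.70 CPM in RL-95-2. For these 3 genes the mimic library was the higher one in both lines, with counting intervals that included 0 in HEC-1-A. In RL-95-2 the log2 ratios were 1.54 for IFIT1 (95% counting interval 1.17 to 1.98), 1.05 for IFIT3 (0.85 to 1.27) and 0.36 for IFIT2 (0.15 to 0.58). IFIT5 went the other way in HEC-1-A, from 9.09 to 7.04 CPM, and was higher in RL-95-2, from 35.3 to 47.8 CPM. Its log2 ratios were -0.37 (-0.60 to -0.14) and 0.44 (0.34 to 0.54). Of the 9 genes of the IFIT and ISG15 group, 7 of 8 with at least 1 CPM had a ratio above 0 in HEC-1-A (median 0.16), while 6 of 9 did in RL-95-2 (median 0.44).

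ISG15, its main ligase HERC5, the HERC5 relative HERC6 and the protease that removes ISG15 differed in their ratios. ISG15 was at 13.6 CPM in the HEC-1-A control and 19.8 CPM with the mimic, and at 3.97 and 3.79 CPM in RL-95-2. USP18, the protease that removes ISG15 and also dampens signalling at the interferon receptor, was at 9.84 and 11.0 CPM in HEC-1-A and at 6.66 and 12.0 CPM in RL-95-2. The log2 ratio of ISG15 was 0.54 (0.38 to 0.71) in HEC-1-A, while that of RL-95-2, -0.07 (-0.38 to 0.25), had an interval across 0. For USP18 it was the other way round, with 0.16 (-0.04 to 0.37) in HEC-1-A but 0.85 (0.64 to 1.07) in RL-95-2. HERC5 was at 0.483 and 0.402 CPM in HEC-1-A and at 21.3 and 16.4 CPM in RL-95-2, where its log2 ratio was -0.37 (-0.52 to -0.23). HERC6, a relative of HERC5 next to it on chromosome 4, was at 9.21 and 11.2 CPM in HEC-1-A and at 6.35 and 13.4 CPM in RL-95-2, with log2 ratios of 0.29 (0.08 to 0.50) and 1.07 (0.86 to 1.29). The neighbours HERC5 and HERC6 thus lay on opposite sides of 0 in RL-95-2.

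ISG20, an exonuclease that degrades single-stranded RNA, had the widest opposite ratios. It was at 2.14 CPM in the HEC-1-A control and 4.33 CPM with the mimic (71 and 194 counts). In RL-95-2 it was at 7.51 CPM in the control and 1.20 CPM with the mimic (293 and 59 counts). Its log2 ratio was 1.0 (0.62 to 1.43) in HEC-1-A and -2.60 (-3.08 to -2.24) in RL-95-2, so that the order of the lines was reversed between control and mimic libraries. Over both lines its log2 fold change was -0.81 ± 0.96 (SE), with an edgeR adjusted p of 0.9999.

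The OAS enzymes sense double-stranded RNA and make the oligoadenylates that activate RNase L. OAS3 was at 51.5 CPM in the HEC-1-A control and 62.1 CPM with the mimic, and at 36.5 and 114 CPM in RL-95-2 (1426 and 5602 counts). Both mimic libraries lay above both controls, with log2 ratios of 0.27 (0.18 to 0.36) and 1.64 (1.55 to 1.72). OAS1 was at 0.423 and 0.916 CPM in HEC-1-A and at 4.18 and 6.84 CPM in RL-95-2, with a log2 ratio of 0.70 (0.44 to 0.99) in the latter. OASL, a relative without the enzyme activity, was at 0.604 and 1.43 CPM in HEC-1-A and at 2.02 and 1.56 CPM in RL-95-2. Its log2 ratio of 1.18 (0.50 to 2.05) in HEC-1-A rested on 20 and 64 counts. OAS2, which lies on chromosome 12 with OAS1 and OAS3, had 2 and 0 counts in HEC-1-A, with 6 and 35 in RL-95-2.

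SAMHD1 and CMPK2 act on the supply of nucleotides. SAMHD1, which breaks down deoxynucleotides, was at 29.5 CPM in the HEC-1-A control and 29.9 CPM with the mimic, and at 7.28 and 23.6 CPM in RL-95-2 (284 and 1162 counts). The RL-95-2 control was the low library of the 4, and the RL-95-2 mimic library lay near the level of HEC-1-A. Its log2 ratios were 0.02 (-0.10 to 0.14) and 1.69 (1.51 to 1.89). CMPK2, a mitochondrial nucleotide kinase, was at 2.96 and 3.31 CPM in HEC-1-A and at 0.564 and 2.52 CPM in RL-95-2, with a log2 ratio of 2.07 (1.5 to 2.88) on 22 and 124 counts. RSAD2 (viperin), its neighbour on chromosome 2, makes a nucleotide analogue that stops viral polymerases. RSAD2 was at 3.17 and 4.49 CPM in HEC-1-A and at 1.20 and 0.649 CPM in RL-95-2, a mean below 1 CPM there. CMPK2 and RSAD2 thus lay on opposite sides of 0 in RL-95-2, with log2 ratios of 2.07 and -0.84 (-1.59 to -0.21).

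DDX60, a helicase linked to RNA sensing, was at 7.76 and 8.33 CPM in HEC-1-A and at 9.63 and 16.7 CPM in RL-95-2, with log2 ratios of 0.10 (-0.13 to 0.34) and 0.79 (0.61 to 0.97). MX1, a dynamin-like GTPase that traps viral nucleocapsids, was at 3.80 and 4.96 CPM in HEC-1-A and at 3.84 and 2.94 CPM in RL-95-2. The controls of the lines were alike for MX1, and the mimic libraries lay on either side of them. Of the 10 genes in this group of MX, OAS, RNA-acting and nucleotide genes, 7 had at least 1 CPM in each line. In HEC-1-A, 7 of 7 ratios were above 0 (median 0.27), against 53.6% of all genes. In RL-95-2 5 of 7 were (median 0.79), against 50.1%.

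BST2 and the IFITM proteins act at membranes. BST2 was at 88.3 CPM in the RL-95-2 control and 176 CPM with the mimic, a log2 ratio of 1.0 (0.94 to 1.06). In HEC-1-A it was at 0.0604 and 0.134 CPM, and the interval of that ratio ran from -1.33 to 4.49. IFITM3 was at 29.7 and 38.9 CPM in HEC-1-A and at 37.2 and 58.0 CPM in RL-95-2, so that the mimic library was the higher one in both lines, with log2 ratios of 0.39 (0.27 to 0.50) and 0.64 (0.55 to 0.73). IFITM1 was at 0.0604 and 0.0447 CPM in HEC-1-A and at 11.6 and 7.49 CPM in RL-95-2, where its log2 ratio was -0.63 (-0.84 to -0.43). IFITM1 and IFITM3 thus lay on opposite sides of 0 in RL-95-2. IFITM2, between 0 and 1.76 CPM in the 4 libraries, shares 351 exon bases with IFITM1 on the same strand in GENCODE 29, so reads there cannot be assigned to 1 of the pair with certainty.

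IFI35, which forms a complex with NMI, was at 8.36 and 12.3 CPM in HEC-1-A and at 16.7 and 13.8 CPM in RL-95-2, with log2 ratios of 0.56 (0.35 to 0.77) and -0.27 (-0.42 to -0.11). The libraries of HEC-1-A lay below those of RL-95-2, and the gap was smaller with the mimic. IFI6, a regulator of apoptosis, was between 2.02 and 3.48 CPM, with log2 ratios of 0.35 and 0.38 whose intervals included 0. IFI44 had between 15 and 72 counts. Of the 9 genes of the IFI and membrane group, 4 of 4 with at least 1 CPM had a ratio above 0 in HEC-1-A (median 0.47). In RL-95-2, 4 of 6 did (median 0.51). The shares of all genes above 0 were 53.6% and 50.1%. IFI27 had 10 and 15 counts in HEC-1-A, with 0 and 13 in RL-95-2. With that control set at 3 counts it was 3.43-fold higher with the mimic there, and the counting interval of the log2 ratio started at 1.27.

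STAT2 and IRF9, both parts of ISGF3, differed little with the mimic. STAT2 was at 24.6 and 28.6 CPM in HEC-1-A and at 45.0 and 47.9 CPM in RL-95-2, with log2 ratios of 0.22 (0.09 to 0.35) and 0.09, the latter with an interval that reached 0. IRF9 was at 6.01 and 6.34 CPM in HEC-1-A and at 8.63 and 9.23 CPM in RL-95-2, with both intervals across 0. IRF1, a factor that binds similar elements and is strongly induced by interferon gamma, was at 17.8 and 19.9 CPM in HEC-1-A and at 47.0 and 45.9 CPM in RL-95-2. All 3 factor genes were above their HEC-1-A levels in both RL-95-2 libraries, IRF9 without a call (log2 fold change 0.53 ± 0.35, edgeR adjusted p = 0.281), while no mimic ratio among them passed 0.22.

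PARP9 and DTX3L encode partners in an ADP-ribosylating ubiquitin ligase, and their genes share a start region on chromosome 3. PARP9 was at 20.8 and 23.0 CPM in HEC-1-A and at 16.2 and 27.9 CPM in RL-95-2. DTX3L was at 42.0 and 51.9 CPM in HEC-1-A and at 81.2 and 80.7 CPM in RL-95-2. In RL-95-2 the log2 ratios of the pair were 0.79 (0.65 to 0.93) for PARP9 and -0.01 (-0.08 to 0.06) for DTX3L. PARP14, a macrodomain ADP-ribosyltransferase, was at 55.6 and 61.9 CPM in HEC-1-A and at 118 and 121 CPM in RL-95-2, with log2 ratios of 0.15 (0.07 to 0.24) and 0.03 (-0.02 to 0.09). TRIM22, a ubiquitin ligase, had 0 and 3 counts in HEC-1-A, with 10 and 50 in RL-95-2. CXCL10, a chemokine that draws T cells, had 0 and 4 counts in HEC-1-A, with 4 and 20 in RL-95-2. XAF1 had 5 and 12 counts in RL-95-2.

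Set side by side, 15 of the 23 genes with at least 1 CPM in both lines had ratios above 0 in both (23.9% of 11913 genes), and 0 had ratios below 0 in both (20.9%). DTX3L, IFI35, IRF1, ISG15, ISG20, MX1 and OASL were above 0 in HEC-1-A and below 0 in RL-95-2, 7 of 23 against 29.2% of all genes. IFIT5 had the opposite pattern, 1 of 23 against 26.0%. The counting intervals lay above 0 in both lines for HERC6, IFITM3, OAS3 and PARP9, 4 of 23 against 10% of all genes, and below 0 in both for 0 of 23 (8.54%). They lay on opposite sides of 0 for IFI35, IFIT5, ISG20 and MX1, 4 of 23 against 26.9% of all genes. Scaling by the library total in place of TMM moved the median of all genes in RL-95-2 to 0.13, and ISG15, IRF1 and DTX3L then lay above 0 there. With that scaling 22 of 28 ratios were above 0 in RL-95-2 (59.6% of all genes) and 18 of 22 were above 0 in both lines (26.5%).

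Genes with larger ratios in 1 line tended to have smaller ones in the other. Across the 23 genes Pearson's r between the 2 lines' log2 ratios was -0.60 and Spearman's rho -0.58, and without ISG20 they were -0.42 and -0.52 over 22 genes. Across all 11913 genes they were -0.13 and -0.15. These are descriptions across genes of the same 4 libraries, and genes are not independent replicates.

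**Figure D4:**
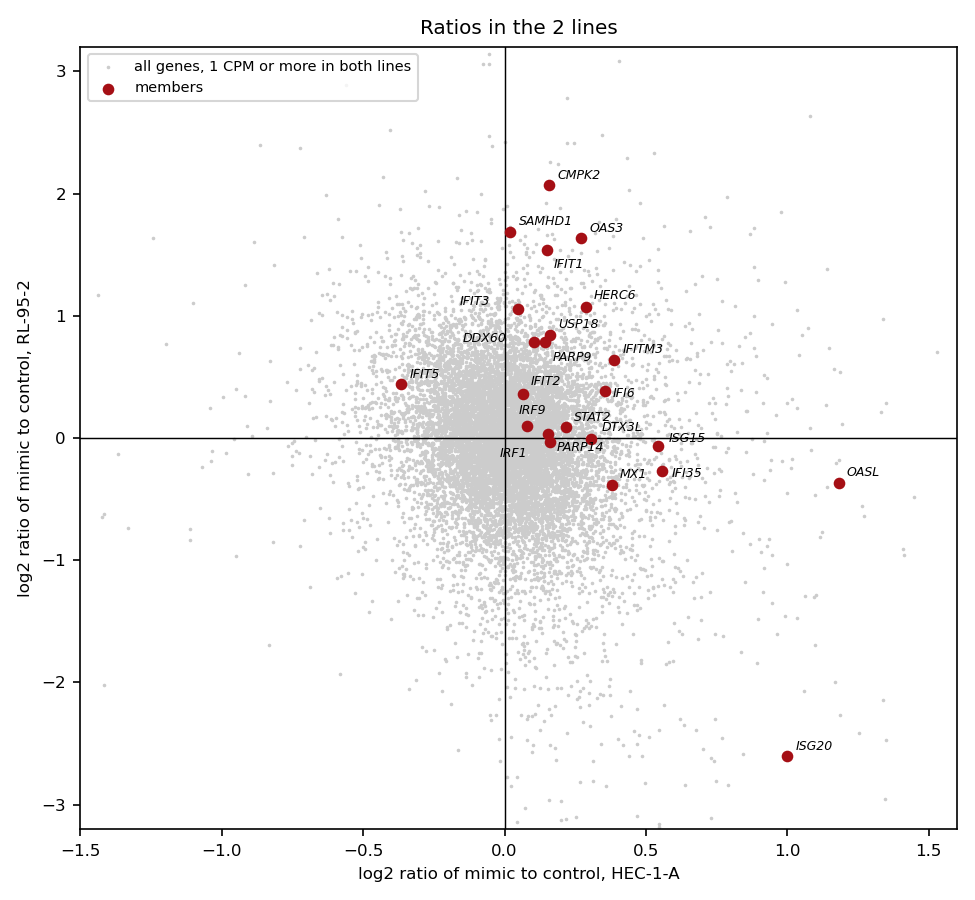
log2 ratio of mimic to control in HEC-1-A (x axis) and RL-95-2 (y axis) for genes with at least 1 CPM in both lines; 45 of 11913 genes lie outside the axes. The 23 named genes (red) fill the upper right in 15 cases, none is at the lower left, and ISG20 lies farthest to the lower right.

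The genes upstream and around the set came from lists of 10 interferons, 19 receptors and signal transducers and 50 further interferon-stimulated genes. IFNE, an epithelial interferon of the female reproductive tract, was the single interferon that passed the filter, at 0.272 and 0.335 CPM in HEC-1-A and 0.846 and 1.24 CPM in RL-95-2. IFNA2, IFNK, IFNG and IFNL2 had no count in any library. IFNB1 had 0 and 2 counts in HEC-1-A, with 7 and 0 in RL-95-2, so none of the 10 was above 1.24 CPM in any library.

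Of the 19 receptor and transducer genes, 0 were called for the mimic over both lines by edgeR, and 1 had an unadjusted p under 0.05. The median log2 ratio of this list was 0.09 in HEC-1-A, while in RL-95-2 it was -0.09. Among the genes of the list whose mean reached 5 CPM in HEC-1-A, IL10RB (0.62) and IRF3 (0.27) were among the highest and the lowest were SOCS3 (-0.50), IFNLR1 (-0.20) and PTPN11 (-0.12). Of those that reached 5 CPM in RL-95-2, the highest were JAK2 (0.41), IFNAR1 (0.38) and IFNAR2 (0.27) and the lowest JAK1 (-1.0), SOCS3 (-0.89) and PTPN11 (-0.70). JAK1, the kinase shared by all interferon receptors, was at 29.4 CPM in the RL-95-2 control and 14.7 CPM with the mimic. Between the lines, IFNGR1, IL10RB, PTPN6, SOCS1 and SOCS3 were called higher in RL-95-2 by edgeR, 5 of 19 against 18.3% of all genes, and 1 was called lower, against 16.7%.

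Of the 50 further interferon-stimulated genes, 46 passed the filter, 0 were called for the mimic and 2 had an unadjusted p under 0.05, both higher. At 1 CPM or more, 24 of 40 ratios were above 0 in HEC-1-A (median 0.05), against 53.6% of all genes, and 28 of 42 were in RL-95-2 (median 0.26), against 50.1%. Above 0 in both lines were 15 of 37 (23.9% of all genes) and below 0 in both 5 of 37 (20.9%). Among those whose mean reached 5 CPM in the line, GBP1, a guanylate-binding GTPase, was the highest in each, with log2 ratios of 0.88 for HEC-1-A and 1.72 for RL-95-2. SAMD9 (0.65) and DDX58 (0.39), which encodes the RNA sensor RIG-I, followed in HEC-1-A, and MLKL (1.24) and ZC3HAV1 (1.12) in RL-95-2. The lowest at that level were C19orf66 (-0.22), TRIM14 (-0.22) and TRIM25 (-0.21) in HEC-1-A and LAMP3 (-2.77), SLFN5 (-2.22) and IFI16 (-1.02) in RL-95-2.

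Between the lines, 16 of the 46 were called higher in RL-95-2 (APOL6, C19orf66, CCL5, DHX58, GBP3, GBP4, IFI16, IFI30, IFIH1, MLKL, NMI, PARP10, SAMD9, SAMD9L, UBA7 and UBE2L6). These are set against 18.3% of all genes. Another 7 were called lower, against 16.7% of all genes (APOL1, DDX58, GBP2, NLRC5, SLFN11, TDRD7 and TNFSF10). NMI, the partner of IFI35, had no count in either HEC-1-A library and 1767 and 2300 counts in RL-95-2. UBE2L6, the enzyme that passes ISG15 to HERC5, also had no count in HEC-1-A, with 184 and 214 counts in RL-95-2. NMI and UBE2L6 therefore passed the low-count filter through RL-95-2 alone. HERC5 and UBE2L6 were thus both near or at 0 in HEC-1-A, the line in which ISG15 was higher.

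Where genes overlap, reads can be shared, and the strand setting of the counting is not given in the sources used here. In GENCODE 29, 10 of the 37 genes share exon bases with another gene of the count table. SAMHD1 shares 10.3% of its exon bases with TLDC2 on the opposite strand, which had 96, 138, 5 and 7 counts in the HEC-1-A control, HEC-1-A mimic, RL-95-2 control and RL-95-2 mimic libraries. IRF1 shares 22.0% with C5orf56 on the opposite strand, which had at most 321 counts. PARP9 and DTX3L share 217 exon bases and CMPK2 and RSAD2 share 14, each pair on opposite strands. IRF9 shares 48.4% of its exon bases with AL136295.5 on the same strand.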

How the data were processed

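Poly(A) RNA of 4 libraries was sequenced as paired reads on the DNBSEQ-T7, per the labels. The authors deposited 1 table of raw counts and 1 of FPKM values. CASAVA, HISAT2 and GRCh38 (hg38) are named in the submitters' processing notes. No source used here gives the counter, annotation or strand setting.

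For the tests, edgeR 4.0.16 under R 4.3.3 was run on the counts of all 15957 genes that passed filterByExpr by transfection, with TMM scaling, a model of line and transfection, and quasi-likelihood F tests. P-values were adjusted by the Benjamini-Hochberg method, with a threshold of 0.05. The SE of a log2 fold change was derived as its absolute value divided by the square root of the F statistic. Mimic and control were paired by the cell line in their labels, leaving 1 residual degree of freedom beside 5.44 prior degrees of freedom. P-values measure the spread left among these 4 samples after line and transfection are fitted. In this design that spread is the difference between the lines in their ratio of mimic to control, which may be technical. Ratios within a line are log2 differences of CPM after TMM, with 2 as prior count, and their 95% intervals are exact conditional binomial ones. A library at 0 was placed at a floor of 3 counts to give a fold. The edgeR step was tested on simulated data drawn at these libraries' depths. FPKM as deposited served to compare genes.

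Genes whose mean reached 5 CPM in a line, or at least 2-fold apart at 1 CPM or more, are given in every library. Others were named for their neighbours or for opposite signs in the lines, after their values were seen. Of the other lists, the 3 highest and 3 lowest ratios per line at 5 CPM or more and the called genes are named; UBE2L6, IFNE and the interferons at 0 are named for their role. A gene that meets this rule is not reported here. The 37 genes and the lists were chosen with earlier results of these data known.

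Alternatives were DESeq2 1.42.0, limma-voom and limma 3.58.1 on log2(FPKM + 1) and log2(FPKM + 0.1), RLE and library-total scaling, other filters, CPM minimums and prior counts, no replicate block, each line or transfection left out and, added after seeing the data, thinning to the smallest total. Positions and overlaps came from GENCODE 29, promoters from RefSeq (GRCh38.p14).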

Additional observations from a re-analysis of the deposited data

Results flagged for a closer look

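In 6 of the 37 genes the ratio of mimic to control lay on opposite sides of 0 in the lines, with both counting intervals clear of 0. At 1 CPM or more in both lines this held for 4 of 23, against 26.9% of 11913 genes, so such a pattern was common in these libraries. The difference between the lines was not tested, since each ratio is 1 library against 1. ISG20 had log2 ratios of 1.0 (HEC-1-A) and -2.60 (RL-95-2). For RSAD2 they were 0.50 and -0.84, with a mean below 1 CPM in RL-95-2. MX1 had 0.38 and -0.38, and IFI35 had 0.56 and -0.27. IFIT5 had the opposite order, -0.37 and 0.44. IFITM2 had -2.05 and 0.79, the first on 5 counts against 0. With the 0 set at 3 counts its HEC-1-A level was 2.25-fold lower with the mimic, and the counting interval of the log2 ratio reached up to -0.31.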

How the results depend on the processing

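For the mimic over both lines, every alternative with a test called 0 of the genes of the set in either direction. The median log2 fold change of 0.38 ranged from 0.19 without RL-95-2 to 0.52 without HEC-1-A. Without the replicate block, which pairs the libraries by line, 0 genes of the set were called and the median was 0.44. Between the lines, 11 genes were called higher, and 5 with at least 1 CPM in all 4 libraries, a filter that removes genes near 0 in HEC-1-A. TRIM22 was the only call lost with DESeq2. Within HEC-1-A, the 1 gene at least 2-fold higher became 0 with library-total scaling, a minimum of 5 CPM, log2(FPKM + 1) and log2(FPKM + 0.1), and 2 with a prior count of 0.5, a minimum of 0.1 CPM and thinning. Within RL-95-2, the median of 0.41 became 0.64 with a minimum of 0.1 CPM. There the 6 genes at least 2-fold higher became 10 with that minimum and 3 with log2(FPKM + 1), and the 1 lower became 0 with a minimum of 5 CPM, which removes ISG20. Under these settings, neither the calls nor the genes at least 2-fold apart were set against the share of all genes. The causes of the other changes were not tested. Single ratios near 0 changed sign: ISG15, IRF1 and DTX3L in RL-95-2 with library-total scaling (0.06, 0.09 and 0.12) and on FPKM, and SAMHD1 in HEC-1-A on FPKM (-0.01). With 1 library per line and transfection, the spread between cultures is unknown, and for genes with few counts a ratio under 2-fold was often within counting error.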
